A study of Mus musculus with 18 samples.

Results

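The cytosolic chaperonin TRiC (also called CCT) is encoded by Tcp1 (the alpha subunit), Cct2 (beta), Cct3 (gamma), Cct4 (delta), Cct5 (epsilon), Cct6a (zeta), Cct7 (eta) and Cct8 (theta). These 8 genes were taken from a table of 51467 genes by matching each Ensembl gene identifier to its symbol, and all 8 passed the filter on low counts that left 12851 genes to test. TRiC is a barrel of stacked rings in which every subunit has a fixed place. It encloses newly made proteins and folds them with the energy of ATP, and actins, tubulins and proteins with WD40 propellers are its best known clients. Prefoldin hands clients over to the ring and phosducin-like proteins act with it. A complex with equal amounts of each subunit, built from coding sequences of nearly the same length, allows the ribosome load of its messages to be compared without a large difference in the room for ribosomes.

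The study asked how the loss of microRNAs changes translation in mouse embryonic stem cells (ESCs). Wild-type (WT) V6.5 ESCs and Dgcr8 KO ESCs, which cannot make most microRNAs because DGCR8 is needed to process their precursors, were grown in serum with LIF and 2i. All 18 libraries come from cells held in 100 ug/ml cycloheximide for 2 min, and lysates were spun on 10 to 50% sucrose gradients. Monosome, low polysome (2 to 4 ribosomes) and high polysome (4 or more ribosomes) fractions were collected from each of 3 samples per genotype, and each fraction was sequenced from the 3′ ends of its messages. WT carried no Dgcr8 change, the KO was 1 line made earlier, and nothing states that the 3 samples of a genotype were separate cultures, so p-values measure only the spread between these samples.

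Libraries held between 1151649 and 4984833 counts, the smallest being WT monosome libraries. Dgcr8 itself kept between 38 and 134 counts in the KO libraries, and its monosome level was 50.2 ± 2.58 CPM (a gene's counts scaled to a library of fixed size) in the KO against 74.8 ± 5.75 in WT (SD, n = 3), but 3′ end reads do not cover an upstream deletion and so do not check the genotype. Naive ESC markers summed to between 2447 and 4028 CPM in every library, with WT high polysomes at 3814 to 4028 and KO high polysomes at 2758 to 2884. Markers of the formative epiblast summed to 83.2 to 153 CPM. Markers of primitive endoderm summed to at most 11.5 CPM, those of trophoblast to at most 24.0 CPM, and those of feeder fibroblasts to at most 33.5 CPM, with Dcn at 0 in all libraries of 5 of the 6 groups. A KO low polysome library gave that highest fibroblast sum. Scaling by total counts in place of TMM moved the median log2 change in translation level of all genes from 0.01 to -0.32, and the share of calls that were higher from 46.1% to 19.2%. The corresponding shares went from 34.2% to 18.5% for the low polysome to monosome ratio, from 42.3% to 18.3% for the high to low polysome ratio, from 46.8% to 56.8% for KO against WT in monosomes, from 47.9% to 36.1% in high polysomes and from 47.5% to 37.4% for the KO translation level.

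The 8 genes lie on 8 chromosomes, and coordinates are those of the counts table (mm10). Tcp1 spans chr17:12916329-12925067, Cct2 chr10:117051001-117063814, Cct3 chr3:88297116-88321767 and Cct4 chr11:22990519-23003780. Cct5 spans chr15:31590800-31601847, Cct6a chr5:129786998-129846371, Cct7 chr6:85451514-85468475 and Cct8 chr16:87483326-87495873. The main transcripts of 7 of them in GENCODE M21 (GRCm38) code for 535 to 556 residues, from 1608 bases of coding sequence in Cct2 to 1671 in Tcp1. Cct6a has no coding sequence in that annotation and is left out wherever a coding length is used. The annotated 3′ UTRs were less alike, with 128 bases in Cct5, 198 in Cct7, 219 in Cct3, 245 in Cct2, 591 in Tcp1, 629 in Cct4 and 662 in Cct8. The 3′ ends of Tcp1 and Cct8 overlap Acat3 and Usp16 on the opposite strand, which the strand-specific counting kept apart. Reads with more than 1 alignment were not counted, so reads shared with processed copies would be lost, and Cct3-ps1 and Tcp1-ps1 themselves held at most 0 and 2 counts in any library.

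MicroRNAs of the miR-290 cluster, abundant in ESCs, share a seed, and 3 of them are shown because Dgcr8 KO ESCs are known to lack them. Sequences are from RefSeq on GRCm38.p6, and capitals mark the seed (bases 2 to 8).
mmu-miR-291a-3p: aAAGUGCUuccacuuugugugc
mmu-miR-294-3p: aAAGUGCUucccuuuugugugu
mmu-miR-295-3p: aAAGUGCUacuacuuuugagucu
The match to bases 2 to 7 of this seed, GCACTT, was found in none of the 7 annotated 3′ UTRs of TRiC genes, read in the sense direction. It was found in 3526 of 11616 3′ UTRs of tested protein-coding genes (30.4%). The 7-base matches AGCACTT and GCACTTA, which contain it, were in 15.6% and 7.34% of them. These shares cover 3′ UTRs of any length and were not matched to those of the TRiC genes, of 128 to 662 bases. The absence says only that these letters are not in the annotated windows.

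Opposite-strand genes start within 1000 bases of the starts of 6 of the 8 TRiC genes, against 26.9% of the 11766 tested protein-coding genes with coordinates. Mrpl18 and Tcp1, Psph and Cct6a, and Pradc1 and Cct7 overlap at their starts, and Tsacc, Fam173b and the noncoding B130034C11Rik begin just upstream of Cct3, Cct5 and Cct8. RefSeq promoters (250 bases before to 50 after the start, GRCm38.p6) were found for 7 of the 8 genes, 9 sequences in all, and Cct4 was not matched. The promoters of Tcp1, Cct3 and Cct7 are shown because Tcp1 and Cct7 were lower in KO monosomes and Cct3 was not called there. Whether promoter letters have a part in these levels was not tested. Capitals mark CCAAT, the letters of the NF-Y box, or CCGGAA, the core of ETS factor sites, on either strand (ATTGG and TTCCGG on the other).
Tcp1, chr17:12916079-12916378, plus strand: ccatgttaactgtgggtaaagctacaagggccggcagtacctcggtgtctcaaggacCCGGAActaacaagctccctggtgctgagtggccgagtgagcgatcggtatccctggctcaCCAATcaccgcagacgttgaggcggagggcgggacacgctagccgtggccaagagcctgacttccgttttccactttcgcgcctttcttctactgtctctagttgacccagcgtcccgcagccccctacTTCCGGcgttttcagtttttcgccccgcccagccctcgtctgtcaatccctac
Cct3, chr3:88296885-88297184, plus strand: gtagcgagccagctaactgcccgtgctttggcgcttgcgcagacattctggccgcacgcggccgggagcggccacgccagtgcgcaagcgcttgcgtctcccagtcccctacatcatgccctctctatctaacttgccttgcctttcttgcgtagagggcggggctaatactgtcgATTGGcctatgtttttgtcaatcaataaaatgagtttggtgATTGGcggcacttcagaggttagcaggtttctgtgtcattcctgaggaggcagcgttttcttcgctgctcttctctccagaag
Cct7, chr6:85451255-85451554, plus strand: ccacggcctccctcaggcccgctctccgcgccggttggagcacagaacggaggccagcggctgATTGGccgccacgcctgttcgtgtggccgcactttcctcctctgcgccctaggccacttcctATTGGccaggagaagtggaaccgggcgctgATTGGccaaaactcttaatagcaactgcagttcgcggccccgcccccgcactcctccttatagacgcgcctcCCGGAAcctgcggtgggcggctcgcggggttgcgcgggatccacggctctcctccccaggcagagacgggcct
CCAAT was present in 4 of the 9 promoters (of Tcp1, Cct3, Cct6a and Cct7) and in 37.4% of 32851 promoters. CCGGAA was present in 5 of the 9 (of Tcp1, Cct2, Cct5, Cct7 and Cct8, not Cct3 or Cct6a) and in 14.9% of all. The heat shock element core GAANNTTC, its own reverse complement, was found in 1 of the 9, of Cct2, and in 7.86% of all promoters. The 9 promoters held 47.3 to 67.7% GC, against a median of 52.7% for all, and the shares were not matched for GC. A match is a description of letters and not a binding site.

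Cct7 had the highest mean CPM of the TRiC genes in each of the 6 groups. Because 3′ end sequencing gives about 1 read per message whatever its length, CPM were compared between genes within a fraction. They are shares of a fraction's library, so they do not say how much of a gene's RNA lay in each fraction. Reads shared with copies were dropped and the capture of each 3′ end was not tested, so the order between genes is approximate. In WT monosomes Cct7 stood at 808, 885 and 883 CPM, and Cct2 followed at 753, 727 and 784 CPM without overlapping it. Cct6a came next at 474 CPM on average, also apart from its neighbours. The other 5 (Cct4 354, Cct8 350.0, Tcp1 331, Cct3 279 and Cct5 259 CPM) formed a run in which each overlapped the next.

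In WT high polysomes the order was different. Cct7 reached 1840.2, 1555 and 1819 CPM and Cct6a 897, 989.7 and 968 CPM, both apart from the next. Cct8 (564 CPM), Cct2 (529 CPM) and Cct3 (464 CPM) overlapped in turn, as did Cct5 (360.0 CPM) and Cct4 (327 CPM), and Tcp1 was lowest at 236, 242 and 221 CPM. The ratio of the highest to the lowest mean among the 8 was 3.32 in WT monosomes, 6.48 in WT low polysomes and 7.47 in WT high polysomes. It was 2.88, 5.01 and 7.84 in the same fractions of the KO. Within single libraries the SD of the 8 log2 levels was 0.62 to 0.66 in WT monosomes, below the 0.78 to 0.92 of WT low polysomes and the 0.91 to 0.93 of WT high polysomes, which overlapped each other.

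**Figure D1:**
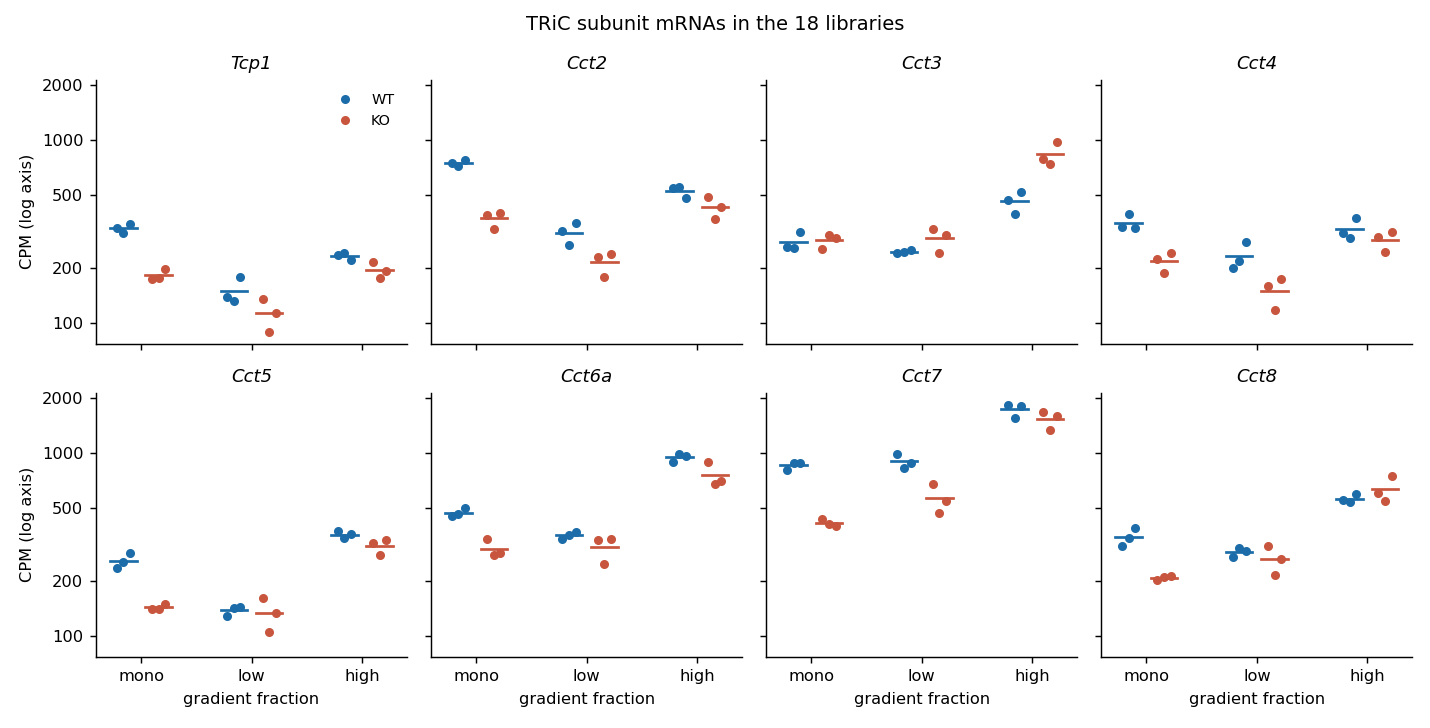
CPM (log axis) of each TRiC gene in the monosome, low polysome and high polysome libraries of WT (blue) and KO (red) ESCs; points are the 3 libraries of a group and bars their means. KO monosome points lie below WT for 7 genes, and Cct3 is the exception, with KO high polysome points of 742 to 983 CPM above the WT points of 397 to 521 CPM.

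Within WT, messages of all 8 subunits were higher in high than in low polysomes, and 5 were lower in low polysomes than in monosomes. The first comparison called 8 of 8 members in limma (53.1% of all genes were called), with log2 differences from 0.50 (SE 0.14) for Cct4 to 1.42 (SE 0.12) for Cct6a. The second called Tcp1, Cct2, Cct4, Cct5 and Cct6a lower (37.1% of all genes were called), from -0.41 (SE 0.12) for Cct6a to -1.28 (SE 0.12) for Cct2. Cct2 showed this trough most plainly: from 753, 727 and 784 CPM in monosomes it went to 321, 268 and 351 CPM in low polysomes and back to 546, 554 and 487 CPM in high polysomes, with no overlap between fractions. In the KO the 8 genes were again higher in high than in low polysomes (8 called, 56.0% of all genes), by 0.80 (SE 0.13) for Tcp1 to 1.53 (SE 0.12) for Cct3 on the log2 scale. KO low polysomes against monosomes called 3 members lower (Tcp1, Cct2 and Cct4) and 2 higher (Cct7 and Cct8), with 45.0% of all genes called.

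The translation level, the ratio of high polysome to monosome CPM, split the subunits of this complex in WT ESCs. The ratio was higher than 1 for Cct7, Cct6a, Cct3, Cct8 and Cct5 and lower than 1 for Tcp1 and Cct2, and these 7 were called (54.0% of all genes were called). Cct7 gave log2 ratios of 1.19, 0.81 and 1.04 in the 3 WT gradients, and limma put its level 2.02-fold higher in high polysomes (log2 1.01, SE 0.12, adjusted p = 1.5e-09). Cct6a gave 0.97, 1.09 and 0.95. Cct2 lay on the other side in every gradient, at -0.46, -0.39 and -0.69 (fitted -0.51, SE 0.12, adjusted p = 0.00052), and Tcp1 at -0.49, -0.36 and -0.67. Cct4 was between them, at -0.11, -0.42 and 0.18, and was not called (adjusted p = 0.5). Subunits of nearly the same coding length thus lay on both sides of an even ratio. This is not particular to the complex, since the middle range of all genes ran from -0.82 to 0.61. The 8 fitted values had an SD of 0.64, against 1.21 over all genes.

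In the KO all 8 fitted log2 ratios were above 0 and 6 were called higher (67.7% of all genes were called), from 0.40 (SE 0.14) for Cct4 to 1.88 (SE 0.12) for Cct7. Cct7 gave 1.93, 1.70 and 2.00 in the KO gradients, 3.68-fold more in high polysomes than in monosomes. Cct8 gave 1.58, 1.37 and 1.81, and Cct3 gave 1.63, 1.28 and 1.74. Tcp1 (0.31, 0.01 and -0.04) and Cct2 (0.31, 0.17 and 0.10) were not called, with fitted values of 0.09 (SE 0.13) and 0.19 (SE 0.12) and values of -0.16 and -0.05 with scaling by total counts.

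The translation level rose in Dgcr8 KO ESCs for 7 of the 8 TRiC messages. This is the interaction of genotype and fraction, and it called 28.2% of all genes in either direction and 13% as higher. For KO against WT in single fractions the members' median was -0.78 in monosomes and -0.20 in high polysomes. The ratio is built from these same libraries, so the lower monosome levels below are not a separate result. With TMM scaling, every KO gradient had a higher ratio than every WT gradient in each of the 8 genes, as in 20.3% of all genes. With total counts as the scale the fitted change of Cct6a was -0.00015, so its separation depends on the scale. The rise was largest for Cct8 (log2 0.89, SE 0.18, adjusted p = 0.00017), which went from ratios of 0.82, 0.65 and 0.61 in WT to 1.58, 1.37 and 1.81. Cct7 (0.86, SE 0.17, adjusted p = 0.00011) and Cct3 (0.82, SE 0.18, adjusted p = 0.00062) followed. These 3 were called in each of 14 other settings.

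Cct2 (0.71, SE 0.17), Cct5 (0.62, SE 0.18) and Tcp1 (0.59, SE 0.18) were also called. Cct4 (0.51, SE 0.20) was called by a narrow margin (adjusted p = 0.048), and that call was lost in 9 of the 14 settings, among them edgeR's quasi-likelihood test (adjusted p = 0.051) and DESeq2 (adjusted p = 0.053). Cct6a (0.33, SE 0.17) was not called (adjusted p = 0.16). None of the 8 passed the study's further fold rule of an absolute log2 over 1, which 15.1% of all genes passed. With total counts as the scale Cct3, Cct7 and Cct8 were called, the members' median went from 0.67 to 0.34, and it stayed 0.66 above that of all genes in both.

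**Figure D2:**
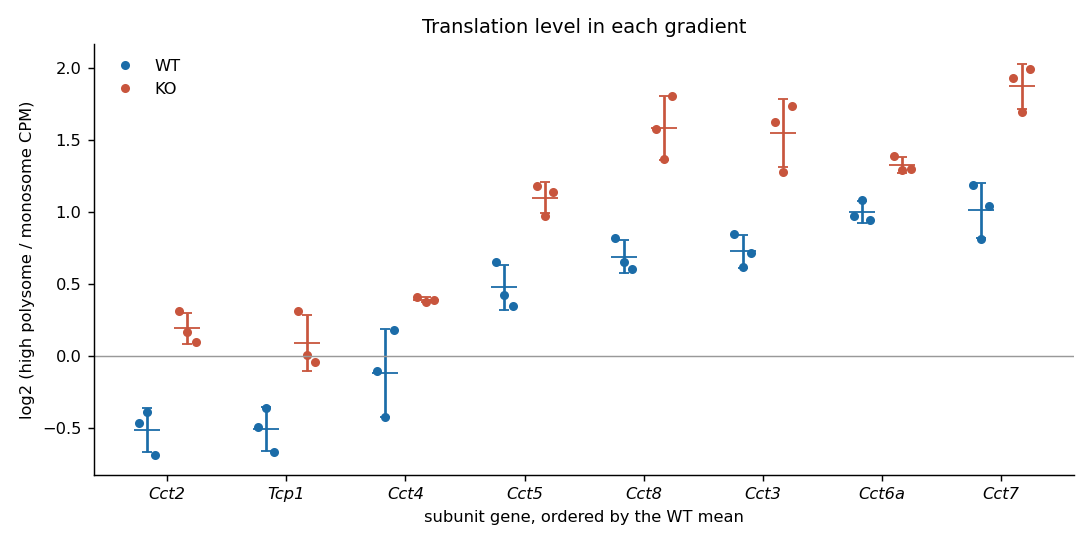
Log2 ratio of high polysome to monosome CPM of each TRiC gene in the 3 WT (blue) and 3 KO (red) gradients, with mean and SD. With TMM scaling every KO point of a gene lies above its WT points, and the genes run from Cct2 and Tcp1 (near -0.5 in WT) to Cct7 (1.01 in WT, 1.88 in KO).

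Fewer members were called between neighbouring fractions. From monosomes to low polysomes, 2 members gained in the KO relative to WT, Cct5 (log2 0.76, SE 0.18, adjusted p = 0.0035) and Cct8 (0.58, SE 0.18, adjusted p = 0.032), with 11.4% of all genes called. With the gradient as a replicate block, which pairs the fractions of 1 gradient, Cct2 (0.48, adjusted p = 0.023) and Cct6a (0.44, adjusted p = 0.032) were called too. From low to high polysomes, Cct3 (0.62, SE 0.18, adjusted p = 0.011) and Cct7 (0.50, SE 0.16, adjusted p = 0.027) gained, with 17.8% of all genes called. Leaving out KO gradient 2 raised the first count to 5, and leaving out any of the other gradients lowered it to 1. The second count was 0 without WT gradient 2 or KO gradient 3 and 1 without WT gradient 1 or 3.

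In monosomes 7 of 8 TRiC messages were lower in the KO (37.3% of all genes were called, 19.9% as lower), and in these 7 every KO library was below every WT library, as in 25.7% of all genes. Cct7 went from 808, 885 and 883 CPM in WT to 437, 412 and 399 CPM in the KO, 0.485 times the WT level (log2 -1.05, SE 0.12, adjusted p = 7.4e-09). Cct2 went from 753, 727 and 784 CPM to 393, 329.7 and 403 CPM (log2 -1.01, SE 0.13). These 2 also passed the fold rule, as did 18.1% of all genes.

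Tcp1 stood at 331, 311 and 351 CPM in WT monosomes and at 174, 177 and 199 CPM in the KO (log2 -0.85, SE 0.13). Cct5 stood at 238, 255 and 284 CPM against 141, 141 and 151 CPM (log2 -0.84, SE 0.13). Cct8 (log2 -0.73, SE 0.13), Cct4 (-0.70, SE 0.14) and Cct6a (-0.66, SE 0.13) were lower by less. Cct3 did not go with them: its monosome levels were 262, 259 and 317 CPM in WT and 256, 305 and 294 CPM in the KO (log2 0.04, SE 0.14, adjusted p = 0.85). The 7 calls were made in each of 14 other settings, and the sum over the 8 genes was 3496, 3641 and 3845 CPM in WT monosomes against 2167, 2043 and 2188 CPM in the KO.

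**Figure D3:**
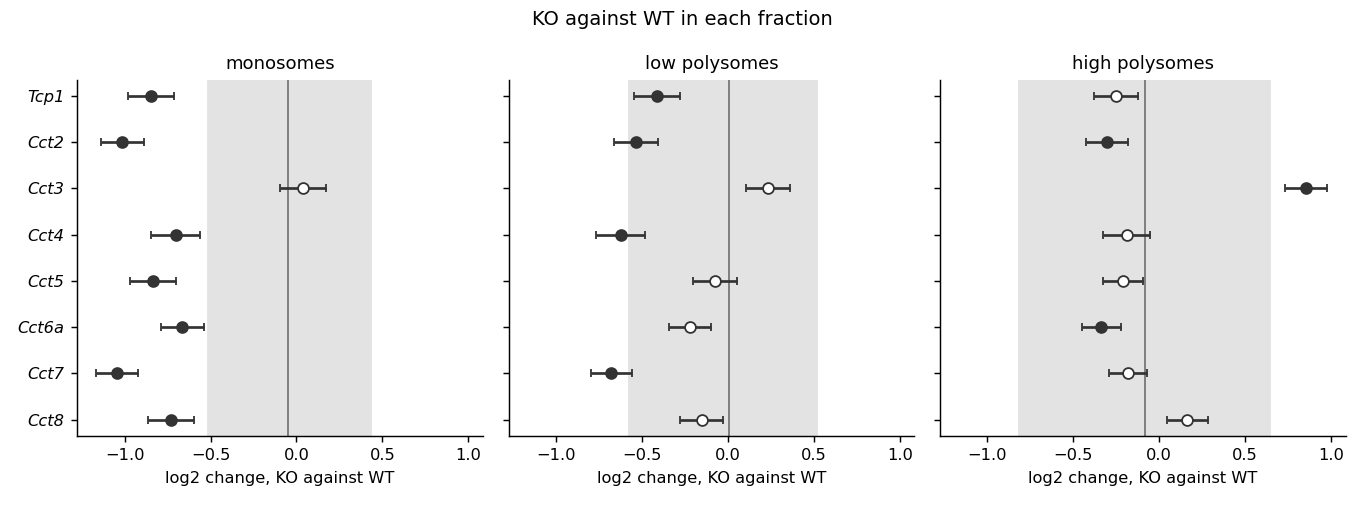
Log2 change of KO against WT for each TRiC gene in monosomes, low polysomes and high polysomes, with the SE as bars; filled points were called. The grey line and band are the median and interquartile range of all 12851 genes, and 7 monosome points lie left of that band while Cct3 lies inside it.

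In low polysomes the KO was lower for 4 members, and 52.3% of all genes were called. Cct7 went from 991, 829 and 887 CPM to 682, 475 and 548 CPM (log2 -0.68, SE 0.12). Cct4 (-0.62, SE 0.14), Cct2 (-0.53, SE 0.13) and Tcp1 (-0.41, SE 0.13) were lower too, and the call of Tcp1 was lost without WT gradient 3 or KO gradient 2. Cct3 (0.23, SE 0.13), Cct5 (-0.08, SE 0.13), Cct6a (-0.22, SE 0.12) and Cct8 (-0.15, SE 0.13) were not called. Without KO gradient 2 Cct3 was called higher (0.36, adjusted p = 0.019). KO gradient 2 gave the lowest value of its group for all 8 genes in low polysomes, with a sum of 1678 CPM against 2345 and 2118 CPM in the other KO gradients.

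In high polysomes Cct3 was the member that rose, from 472, 397 and 521 CPM in WT to 791, 742 and 983 CPM in the KO (1.81-fold, log2 0.86, SE 0.12, adjusted p = 9.6e-08). Cct6a (log2 -0.34, SE 0.11) and Cct2 (-0.31, SE 0.12) were called lower, and 60.7% of all genes were called. The calls of Cct6a and Cct2 were both lost without WT gradient 2 or KO gradient 3, and that of Cct2 also without WT gradient 1 or KO gradient 2. Without KO gradient 2 Cct8 was called higher (0.27, adjusted p = 0.037), and without KO gradient 1 Tcp1 was called lower (-0.33, adjusted p = 0.03). Cct7 was at 1840.2, 1555 and 1819 CPM in WT and 1670.0, 1339 and 1595 CPM in the KO, which overlapped (log2 -0.18, SE 0.11). Cct8 (0.16, SE 0.12), Cct4 (-0.19, SE 0.14), Cct5 (-0.21, SE 0.12) and Tcp1 (-0.25, SE 0.13) were not called. With total counts as the scale 6 members were called lower and Cct3 was still called higher (log2 0.63). The sum over the 8 genes was 5230.1, 4916 and 5353 CPM in WT high polysomes and 5284, 4381 and 5314 CPM in the KO, so the summed level overlapped in high polysomes while it did not in monosomes. Total RNA of unfractionated cells was not used here, and fewer messages per cell cannot be told apart from a different distribution over the gradient by any single fraction.

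**Figure D4:**
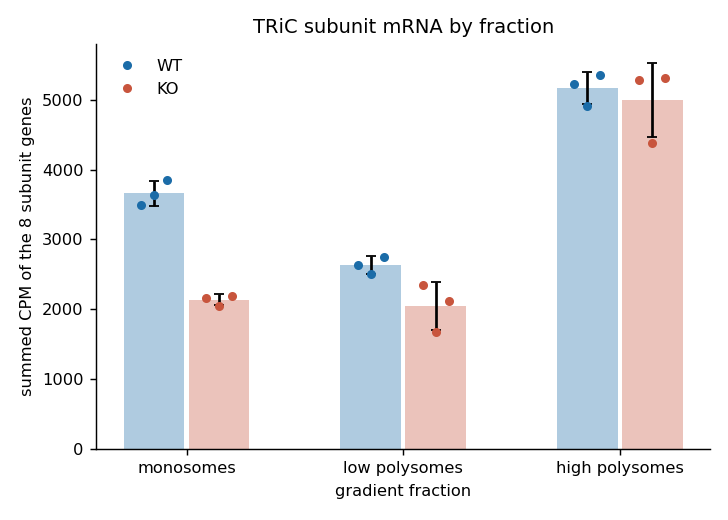
Summed CPM of the 8 TRiC genes in each fraction of WT (blue) and KO (red) gradients; bars are means, error bars SD and points the 3 libraries. WT and KO are apart in monosomes (3496 to 3845 against 2043 to 2188 CPM) and overlap in high polysomes.

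The makeup of the summed TRiC messages moved with these differences. Cct7 held 23.5% ± 0.742 of the sum in WT monosomes and 19.5% ± 1.13 in KO monosomes (SD, n = 3). It held 33.6% ± 1.81 in WT high polysomes and 30.7% ± 0.805 in KO high polysomes. Cct3 lay below Cct7, Cct6a, Cct8 and Cct2 in WT high polysomes. In the KO its mean was below that of Cct7 alone, and it overlapped Cct6a at 893, 682 and 704 CPM. Tcp1 was lowest in high polysomes of both genotypes.

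Across all 18 libraries the members fell into patterns. Pearson's r over the 18 libraries is given as a description, since the libraries share groups, gradients and scaling. Tcp1 and Cct2 were most alike (r = 0.98), followed by Cct5 and Cct6a (r = 0.94) and Cct7 and Cct8 (r = 0.94). Tcp1 and Cct3 were least alike (r = 0.19). With the mean of the other 7 members, Cct5 correlated best (r = 0.98) and Cct3 least (r = 0.62). The 5 other genes most like the mean profile of the complex, among all genes tested, were Ilf2 (r = 0.97), Ccnb1 (r = 0.97), Nelfcd (r = 0.96), Shmt2 (r = 0.96) and G3bp1 (r = 0.96).

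Coding length moved with the change in translation level over all genes, so the TRiC genes were set beside genes of their own length. In 20 bins of 11763 protein-coding genes the median change ran from -1.02 in the bin of the shortest coding sequences to 0.66 in that of the longest. The 248 other genes with coding sequences of 1608 to 1671 bases had a median of 0.12, and 17.3% of them were called higher. All 7 members with a coding length were above that median and 5 of these 7 were above the upper quartile of 0.60. For KO against WT in monosomes the same 248 genes had a median of 0.02 and 10.9% were called lower, and 6 of the 7 members lay below their lower quartile of -0.37. For the WT translation level they had a median of 0.01 and an interquartile range from -0.59 to 0.53, and 3 of the 7 members lay above this range and none below it.

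**Figure D5:**
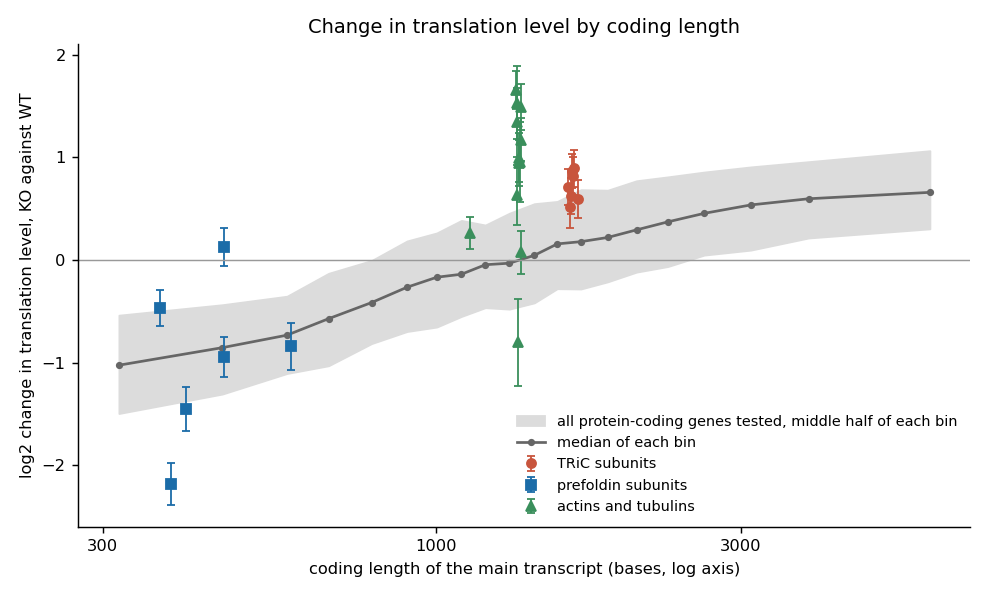
Log2 change in translation level (KO against WT) against coding length (log axis) for 7 TRiC subunits (red circles), 6 prefoldin subunits (blue squares) and 12 actins and tubulins (green triangles), with SE bars. The grey line and band are the median and interquartile range of 20 bins of all protein-coding genes tested; TRiC genes lie above the line and prefoldin genes around it.

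Of 13 actin and tubulin genes listed 12 were tested, and 7 rose in translation level while none fell. This comparison called 28.2% of all genes in either direction and 13% as higher. The median of the 12 was 0.98, against -0.04 for genes of 1128 to 1356 coding bases. Tubb5 (log2 1.65, SE 0.19), a beta-tubulin, and Tubb2b (1.53, SE 0.36) rose most. In monosomes 6 of these 12 were lower in the KO (19.9% of all genes were), led by Tubb3 (log2 -1.94, SE 0.33) and Tuba1c (-1.61, SE 0.18), and Actb, cytoplasmic beta-actin, was higher (0.32, SE 0.11). Of the 11 listed WD40 propeller clients 1 rose in translation level (Gnb5, 1.60, SE 0.59) and 2 fell (Gnb1, -0.97, SE 0.18, and Gnb2, -0.80, SE 0.19). These are subunits of heterotrimeric G proteins, and the share called was near that of all genes. Gnb5 lay near the filter of 3 CPM, at 5.66 ± 4.16 CPM in WT monosomes and 3.12 ± 0.84 CPM in WT high polysomes (SD). Reads of tubulin and actin genes that also match their copies were dropped in counting, so their levels are uncertain.

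Prefoldin went the other way, as did genes of its coding length. Of its 6 subunits 5 fell in translation level, where 28.2% of all genes were called in either direction. Pfdn6 (log2 -2.18, SE 0.21) and Pfdn4 (-1.45, SE 0.22) fell most, and Pfdn5 (0.13, SE 0.18) was not called. The median of the 6 was -0.90, and that of the 1038 other genes with 369 to 591 coding bases was -0.85. In high polysomes, where 60.7% of all genes were called, all 6 were lower in the KO, led by Pfdn6 (-1.96, SE 0.13) and Pfdn4 (-1.88, SE 0.16). Of 4 phosducin-like genes tested 1 fell in translation level (Pdcl2, -1.61, SE 0.50). Its level was low, at 6.48 ± 3.33 CPM in WT monosomes (SD).

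Other folding factors were mixed. Of 17 genes of the HSP70 and HSP90 system tested, 6 rose in translation level and 3 fell. Hsp90ab1 (log2 1.71, SE 0.17), the constitutive cytosolic HSP90, and Hspa8 (1.34, SE 0.18), the constitutive HSP70, rose most, and Bag1 (-1.53, SE 0.22) and Ahsa1 (-0.88, SE 0.26), which act as co-chaperones of HSP70 and HSP90, fell most. Of 6 tubulin cofactors Tbcd (1.72, SE 0.26) rose and Tbca (-0.88, SE 0.17) fell. Of 5 relatives of the chaperonin that were tested, Hspe1 (-1.36, SE 0.19), the mitochondrial co-chaperonin, and Mkks (-1.07, SE 0.25), a chaperonin-like protein, fell and none rose. With 28.2% of all genes called in this comparison, each of these lists is a description of its members. Coding lengths ran from 309 to 2142 bases in the relatives and from 327 to 3591 in the cofactors. Single genes were not set beside genes of their own length, and the bin of the shortest coding sequences had a median of -1.02.

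The genes that start next to TRiC genes on the other strand followed them in some monosome levels but not in translation level. In every tested neighbour the fitted change in translation level was negative. That comparison called 28.2% of all genes in either direction, and KO against WT in monosomes called 19.9% as lower. Over all genes the change in translation level was lower for shorter coding sequences, and the neighbours were not set beside genes of their own length. Mrpl18, next to Tcp1, was lower in KO monosomes (log2 -0.52, SE 0.13) but its translation level fell (-1.20, SE 0.20) where that of Tcp1 rose. Psph, next to Cct6a, was lower in KO monosomes (-1.05, SE 0.20) and its translation level fell (-0.72, SE 0.24). Pradc1, next to Cct7, was lower in monosomes (-1.27, SE 0.34) and its translation level was not called (-0.24, SE 0.54). Tsacc, next to Cct3, was not called in monosomes (-0.38, SE 0.27) and was lower in high polysomes (-1.89), where Cct3 was higher. The translation level of Tsacc fell (-1.51, SE 0.52). Fam173b, next to Cct5, was not called in monosomes (0.45, SE 0.31), where Cct5 was lower, or in translation level (-0.28, SE 0.43). Whether the shared starts have a part in any of these levels was not tested.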

How the data were processed

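The authors trimmed reads with cutadapt 1.14, mapped them to mm10 with STAR 2.5.3a keeping reads with 1 alignment, and counted them per gene with featureCounts 1.5.3 on the sense strand, using GENCODE M14 without rRNA. The deposited values are raw counts per gene and library, and no UMI step is stated, so PCR copies count as reads. Identifiers were matched to GENCODE M21, which named 51274 of 51467 genes. Genes with at least 3 CPM in at least 3 libraries were kept, scaled by TMM and fitted with limma 3.58.1 (voom, R 4.3.3), with a mean for each of the 6 groups, the design the study states. A gene was called at a Benjamini-Hochberg adjusted p under 0.05 over all 12851 genes. edgeR 4.0.16 and DESeq2 1.42.0 were alternatives. The model was tested on simulated counts of independent libraries, with changes placed in KO high polysomes alone. Shared gradients and a shift of scale between fractions were not simulated, so that test does not cover them. Log2 CPM for gradient ratios used a prior count of 2.

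Fractions of 1 number within a genotype come from the same gradient by the protocol. Over 18 such pairs, correlations of deviations from the group means were 0.03 to 0.14, against -0.14 to 0.08 between gradients. Across genotypes the labels tie nothing to a shared number, and those 9 correlations were 0.00018 to 0.10. Named genes were the members, Dgcr8, up to 2 called genes in each direction from each other list, and the 5 genes most like the complex, and Pfdn5 and the neighbours at shared starts were added after their values were seen. Members and lists were chosen with earlier results of these data known.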

Additional observations from a re-analysis of the deposited data

Results flagged for a closer look

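The effect of fraction differed between WT and KO gradients for 11 of the 24 combinations of TRiC gene and pair of fractions, by the interaction test in limma. Of all genes this test called 28.2% for high polysomes against monosomes and 11.4% for low polysomes against monosomes. For high against low polysomes it called 17.8%. For high polysomes against monosomes these were Tcp1 (log2 0.59), Cct2 (0.71), Cct3 (0.82), Cct4 (0.51), Cct5 (0.62), Cct7 (0.86) and Cct8 (0.89). For low polysomes against monosomes they were Cct5 (0.76) and Cct8 (0.58), and for high against low polysomes Cct3 (0.62) and Cct7 (0.50). All 11 differences were positive, meaning a larger ratio in the KO. The 3 pairs share fractions, so the 24 combinations are not separate tests and their signs are not separate results. No group had more than 3 libraries, so single libraries were not screened for distance from their group.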

How the results depend on the processing

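Of 38 calls of TRiC genes over 8 comparisons, 27 were made again in each of 14 alternatives and 11 were lost in at least 1. The 8 comparisons are KO against WT in 3 fractions, 3 interactions and the 2 translation levels. Scaling by total counts moved the called members from 7 to 3 for the change in translation level, from 2 to 1 for the change in low polysome to monosome ratio, from 2 to 0 for the change in high to low polysome ratio and from 3 to 7 in high polysomes. For the low polysome to monosome change, testing all genes with a count gave 1 and the replicate block, which pairs fractions of a gradient, gave 4. The replicate block changed the call of no other member. For the high to low polysome change, edgeR's test gave 1 and fitting only the libraries compared gave 1. The rule of an absolute log2 over 1 left 0 for all 3 interactions and for low and high polysomes, 2 for monosomes and 2 for the WT translation level. For the high to low polysome change limma gave 0 calls with total counts, without WT gradient 2 and without KO gradient 3, where 1, 2 and 3 members had an unadjusted p under 0.05. Leaving out 1 gradient gave 5 to 7 calls for the change in translation level, 1 to 5 for low polysomes to monosomes, 0 to 2 for high to low polysomes, and 1 to 4 in high polysomes.

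Changes of sign occurred in 15 of 896 values, in none of the called ones. With total counts they were Cct6a (-0.00015) for the change in translation level, Cct4 (-0.0497) and Tcp1 (-0.0428) for the low to monosome and high to low changes, Cct8 (-0.0587) in high polysomes, and Tcp1 (-0.16) and Cct2 (-0.0533) for the KO translation level. The 10 CPM filter gave -0.022 for Tcp1 in the KO translation level. Leaving out 1 gradient gave -0.12 to 0.255 for Cct4 in the low polysome to monosome change, -0.0132 to 0.311 for Tcp1 and -0.19 to 0.0133 for Cct6a in the high to low polysome change, and -0.00999 to 0.128 for Cct3 in monosomes. It gave -0.217 to 0.0763 for Cct5 in low polysomes, -0.27 to 0.11 for Cct4 in the WT translation level and -0.0174 to 0.158 for Tcp1 in the KO translation level. The causes of these moves were not tested. Libraries of 1151649 to 4984833 counts and 3 libraries a group limit the precision.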
